A study of Mus musculus with 72 samples.

Results

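Dexamethasone (Dex), a synthetic glucocorticoid, and lipopolysaccharide (LPS), a cell-wall component of Gram-negative bacteria, were given alone and together to wild-type RAW264.7 cells, and the account here is of the genes on which their joint effect departed from the product of their separate effects. RAW264.7 is a mouse macrophage line from a male BALB/c animal. The comparison rests on 12 of the 72 libraries of a study of Setd1a and Setd1b in mouse macrophages, in 4 groups of 3 libraries, and its members were taken by their group labels and not by any measured value. Vehicle cells received 0.1% ethanol and phosphate-buffered saline for 6 h. LPS cells received 0.1% ethanol and 100 ng/ml LPS for 6 h, a unit the labels write as ng/ul in places. Dex cells received 1 uM Dex for 6 h, and Dex+LPS cells received both agents at these doses for 6 h, so the agents acted over the same time and neither was a pretreatment. The same 4 treatments in RAW264.7 cells carrying a Setd1aDel/+ allele, again in 3 libraries each, serve as a second run of the design. The labels call the replicates biological and do not tell if each was its own culture; p-values here therefore speak of these libraries only.

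LPS binds TLR4 and signals through MyD88 and through TRIF to activate NF-kB, AP-1 and IRF3 and, by way of secreted interferon beta, interferon-stimulated genes. Dex binds the glucocorticoid receptor, which enters the nucleus, raises genes with response elements, such as Tsc22d3, Fkbp5 and Dusp1, and dampens transcription driven by NF-kB, AP-1 and IRF3. In macrophages both responses act at many of the same regulatory elements.

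The measure was an interaction on the log2(TPM + 1) scale, where TPM is the length-scaled and library-scaled abundance of a transcript: the difference between Dex+LPS and LPS, minus the difference between Dex and vehicle. A value of 0 means that Dex multiplied TPM + 1 by the same factor with and without LPS. A negative value means that Dex+LPS cells lay below the product of the separate effects on TPM + 1, and a positive value that they lay above it. For genes near 0 TPM in some group, the sign can differ from that of the plain TPM factors. The expected level printed below is that product, computed on TPM + 1. Each gene was tested with limma across 24 libraries, with Benjamini-Hochberg adjustment over 8981 genes, and a gene was called at an adjusted p under 0.05.

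The deposited table lists 8983 genes, whose TPM values sum to between 902114 and 911851 per library; read depth is not recoverable from TPM and is unknown here. Of 15 macrophage markers 14 were listed, among them Csf1r, Adgre1, Spi1, Lyz2 and Cd68, with a summed level between 8200 and 11844 TPM in the wild-type libraries. That sum was lowest in Dex+LPS cells, where it reached at most 8577 TPM, and highest in vehicle cells. Of the T cell, NK cell, mast cell, fibroblast, endothelial, epithelial and erythroid markers none was listed, and of the B cell and neutrophil lists only Ighm and S100a8 were. Replicate libraries of a group correlated at 0.9918 or more over genes in the wild type. Within groups, libraries differed in how their deviations followed the GC content of transcripts, with Spearman correlations across genes from −0.38 in the third Dex library to 0.24 in the second. A fit that removes this trend is named beside single genes whose call it changed.

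Interactions were common and went in both directions. Of the 8981 genes, 1903 were called positive, which is 21.2%, and 830 negative, which is 9.24%, around a median interaction of 0.08 over all genes. The split depends on how libraries are scaled: after scaling each library by the median ratio of its genes to their means, 1307 genes were positive and 1289 negative, since this scaling moved the median of all genes by −0.08. Large interactions were few. At a size of at least 1 on the log2 scale, 113 genes were positive (1.26%) and 102 negative (1.14%). Dex alone raised 1080 genes (12%) and lowered 2223 (24.8%), and Dex under LPS raised 1320 (14.7%) and lowered 953 (10.6%). LPS alone raised 1751 (19.5%) and lowered 4700 (52.3%), or 3072 and 3039 after median-ratio scaling. Dex comparisons without and with LPS have no library in common. They agreed on 342 raised genes, which is 31.7% of those raised without LPS and 25.9% of those raised with it, and on 431 lowered genes, 19.4% and 45.2% of the respective lists. Another 103 genes were raised by Dex alone and lowered by Dex under LPS. That is 9.54% of those raised without LPS, and Dex under LPS lowered 10.6% of all genes. A further 345 were lowered by Dex alone and raised under LPS. That is 15.5% of those lowered without LPS, and Dex under LPS raised 14.7% of all genes. Both shares lie near those of all genes.

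**Figure D1:**
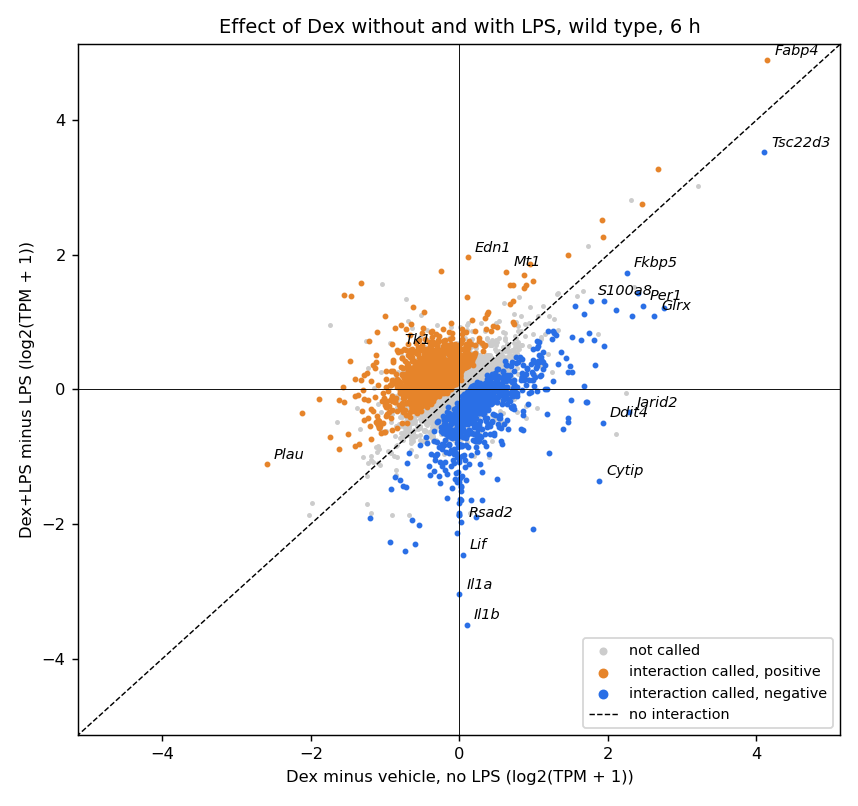
Each point is 1 of 8981 genes, with the Dex minus vehicle difference on the x axis and the Dex+LPS minus LPS difference on the y axis, both in log2(TPM + 1); orange and blue points are the 1903 positive and 830 negative calls. Genes on the dashed diagonal show no interaction; Cytip and Ddit4 lie to the right and below 0, Plau lies to the left of the diagonal, and Il1b, Il1a and Lif lie straight below 0 on the x axis.

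Each called gene was placed by which of the 4 groups held its highest mean. This is a description of the calls and no test, since the sign of an interaction already limits which group can be highest. Of the 830 negative calls, 449 (54.1%) were highest in LPS cells and 336 (40.5%) in Dex cells, against 19.4% and 28.8% of all genes. Another 40 (4.82%) peaked in Dex+LPS cells, against 11.1% of all genes. Of the 1903 positive calls, 1441 (75.7%) were highest in vehicle cells, against 40.6% of all genes. Of these, 1129 were lowest in LPS cells, which is 59.3% of the positive calls, against 24.3% of all genes with this pattern. A further 275 positive calls (14.5%) peaked in Dex+LPS cells, near the 11.1% of all genes. The sign of 819 negative and 1875 positive calls was the same when the departure was counted in TPM from the sum of the effects in place of the product.

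**Figure D2:**
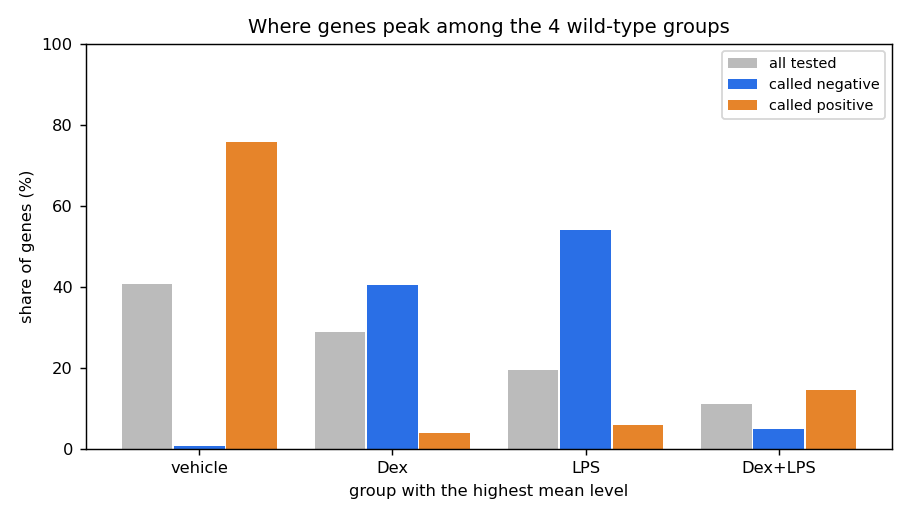
Bars give the share of genes (y axis, percent) whose highest mean level falls in each of the 4 wild-type groups (x axis), for all tested genes (grey), negative calls (blue) and positive calls (orange); the sign of a call limits where it can peak. The negative calls peak in LPS cells (54.1%) and Dex cells (40.5%), the positive calls in vehicle cells (75.7%). Among all tested genes these shares are 19.4%, 28.8% and 40.6%.

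Cytip, Ddit4 and Jarid2 were raised by Dex alone and not by Dex under LPS. Cytip (chr2:58129137-58195532, minus strand, GRCm38), which codes for a cytohesin-binding protein of leukocyte adhesion, stood at 10.0, 12.3 and 13.9 TPM in vehicle libraries, 42.9, 49.5 and 48.2 with Dex, 8.17, 8.36 and 7.53 with LPS, and 2.45, 2.70 and 2.42 with both. Without LPS the Dex libraries all lay above vehicle, and with LPS they all lay below LPS alone. The interaction was −3.24 ± 0.13 (SE, n = 3 per group, limma adjusted p 1.75e-12). As a ratio of TPM + 1, Dex+LPS cells held 0.106 of the expected level, which was 32.2 TPM. Ddit4, an inhibitor of mTORC1 and a classic glucocorticoid target, read 14.2, 14.2 and 13.4 TPM in vehicle libraries, 54.3, 59.2 and 53.8 with Dex, 9.27, 8.56 and 10.2 with LPS and 6.23, 6.39 and 6.38 with both. It too switched direction: Dex raised it 4.01-fold without LPS and lowered it to 0.678 of its level with LPS, an interaction of −2.42 ± 0.18 (limma adjusted p 1.28e-08). Jarid2, a cofactor of Polycomb repressive complex 2, rose from 30.3 ± 11.4 to 146 ± 12.6 TPM (SD, n = 3) with Dex alone, whereas LPS and Dex+LPS libraries overlapped at 84.2 ± 20.0 and 65.7 ± 10.9 TPM, an interaction of −2.63 ± 0.41 (limma adjusted p 7.01e-05).

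The same form was seen in Prnp, the prion protein, which Dex took from 5.05 ± 0.197 to 18.7 ± 0.437 TPM without LPS, against 12.9 ± 0.750 and 11.1 ± 0.736 TPM with it (SD, n = 3; interaction −1.89 ± 0.18). Hal, histidine ammonia-lyase, rose from 2.59 ± 0.643 to 10.4 ± 0.814 TPM and stood with LPS at 1.15 ± 0.566 and 1.18 ± 0.163 TPM, an interaction of −1.63 ± 0.29. In other genes Dex still raised the level under LPS, by a smaller factor. Ap1s2, a subunit of the AP-1 clathrin adaptor, rose 6.88-fold without LPS and 2.37-fold with it. Mkrn1, a RING ubiquitin ligase, rose 5.07-fold and 2.16-fold, and Nfil3, a basic leucine zipper repressor, 3.87-fold and 1.32-fold. The interactions of these genes were −1.55 ± 0.12, −1.23 ± 0.10 and −1.46 ± 0.09 (limma adjusted p at most 3.9e-08).

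Of 35 genes listed as glucocorticoid-induced, 23 were listed and tested. Dex alone raised 13 of them here and lowered 4, against 12% and 24.8% of all genes. Their interactions were positive in 5 (21.7%) and negative in 11 (47.8%), against 21.2% and 9.24% of all genes, with a median of −0.39 against 0.08. Tsc22d3, Fkbp5 and Per1 were raised by Dex in both settings. Tsc22d3, coding for GILZ, an inhibitor of NF-kB and AP-1, read 8.91, 11.4 and 8.91 TPM in vehicle libraries, 174, 189.8 and 184 with Dex, 4.34, 4.67 and 4.31 with LPS and 57.9, 61.5 and 65.2 with both. The Dex fold was 18.7 without LPS and 13.9 with LPS, an interaction of −0.58 ± 0.14 (limma adjusted p 0.00348). Fkbp5, a co-chaperone that lowers the receptor's affinity for hormone, rose 4.88-fold and 3.45-fold (−0.52 ± 0.09), and the clock gene Per1 rose 6.03-fold and 2.42-fold (−1.23 ± 0.24). LPS itself lowered Tsc22d3 and Fkbp5, to 0.456 and 0.627 of vehicle, and raised Per1 1.63-fold. For Sgk1, a kinase of ion transport, the interaction of −0.82 ± 0.32 was not called (limma adjusted p 0.0603) and Dex raised it 5.41-fold without LPS and 2.97-fold with it. Sgk1 was called at a pseudocount of 5 (limma adjusted p 0.0259), after median-ratio scaling (0.0458), with the GC trend removed (0.0486) and in 3 of 12 fits that left out 1 library.

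Mt1, Mt2, Dusp1 and Angptl4 were called positive with Klf9. Mt1, a zinc-binding metallothionein, read 2641, 2454 and 2606 TPM in vehicle libraries, 4292, 4253 and 3457 with Dex, 2547, 2448 and 2426 with LPS, and 8692, 8516 and 7764 with both. The LPS and vehicle libraries overlapped, and LPS alone was not called; the Dex fold was 1.56 without LPS and 3.36 with it, an interaction of 1.11 ± 0.13 (limma adjusted p 2.05e-06). Mt2, which lies beside it on chromosome 8, reached 10972 ± 67.7 TPM (SD, n = 3) in Dex+LPS cells against an expected 7571, an interaction of 0.54 ± 0.07; reads that fit both metallothionein copies could be assigned to either. Dusp1, the phosphatase that shuts off p38 and JNK, read 6.83, 8.79 and 8.01 TPM in vehicle libraries, 31.9, 33.9 and 31.7 with Dex, 13.2, 13.3 and 12.2 with LPS, and 75.6, 79.9 and 78.7 with both (interaction 0.59 ± 0.12, limma adjusted p 0.00092). Klf9 rose 4.06-fold with Dex alone and 5.76-fold under LPS; its interaction of 0.33 ± 0.12 (limma adjusted p 0.0415) was lost in 10 of 12 fits that left out 1 library, after median-ratio scaling, with the GC trend removed, with the replicate block and in a fit of the 12 wild-type libraries alone, and became −0.01 at a pseudocount of 5. Angptl4 fell with Dex alone, from 6.47 ± 0.758 to 3.62 ± 0.446 TPM, and its positive value of 0.82 ± 0.17 comes with levels of 1.55 ± 0.143 and 1.80 ± 0.144 TPM under LPS.

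In the Mt1 promoter, the only 1 of 18 promoters of the glucocorticoid-induced list to hold the glucocorticoid response element, searched as GNACA and TGTNC with any 3 bases between, in the 250 bases before the start, the match begins 94 bases before the RefSeq start. The same letters occur in 0.16% of 6888 promoters of tested genes. They were in 1 of 627 promoters of negative calls (0.16%) and in 2 of 1456 promoters of positive calls (0.14%), so neither direction stood apart from all genes. The sequence, from RefSeq (GRCm38.p6, chr8:94178839-94179081, plus strand) and shown because Mt1 has the highest interaction of that list, has the match in capitals.
Mt1 promoter: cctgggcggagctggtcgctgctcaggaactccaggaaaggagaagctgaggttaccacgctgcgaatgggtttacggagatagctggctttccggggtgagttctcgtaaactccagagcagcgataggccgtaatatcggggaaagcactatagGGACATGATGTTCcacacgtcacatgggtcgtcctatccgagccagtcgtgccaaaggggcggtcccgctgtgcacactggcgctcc

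Several genes that each agent raised on its own were highest under the pair. Lcn2, an iron-withholding lipocalin, read 1.46, 0.631 and 1.45 TPM in vehicle libraries, 9.03, 9.19 and 10.7 with Dex, 28.6, 27.4 and 32.6 with LPS, and 218, 203 and 218 with both. The Dex fold was 8.16 without LPS and 7.22 with it, and the interaction of 0.51 ± 0.21 was not called (limma adjusted p 0.0704). It was 1.42 (limma adjusted p 4.75e-08) at a pseudocount of 5, which is above the vehicle mean of 1.18 TPM. The Dex fold in TPM was no larger under LPS, so the size of this interaction depends on how low values are handled. Fabp4, a fatty acid carrier, read 0.237, 0.26 and 0 TPM in vehicle libraries, 21.0, 15.8 and 22.1 with Dex, 3.19, 3.45 and 5.08 with LPS and 133, 135 and 159.9 with both. Its interaction of 0.75 ± 0.23 (limma adjusted p 0.0195) turned to −1.23 (limma adjusted p 0.167) at a pseudocount of 0.1, and its call was also lost in 3 of 12 fits that left out 1 library; the sign therefore depends on how values near 0 are handled. S100a8, a subunit of the antimicrobial protein calprotectin, reached 195 ± 10.1 TPM (SD, n = 3) under the pair from 22.3 ± 3.40 with Dex and 77.7 ± 3.74 with LPS; its interaction of −0.45 ± 0.16 (limma adjusted p 0.0443) was lost in 8 of 12 fits that left out 1 library and at a pseudocount of 5.

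Glrx, glutaredoxin, shows how a gene can peak under the pair and still count as negative. It read 64.2, 65.1 and 75.8 TPM in vehicle libraries, 419, 422 and 429 with Dex, 457, 454 and 460.4 with LPS, and 959, 943 and 1034 with both. Dex raised it 6.19-fold without LPS and 2.14-fold with it, so the level was 0.348 of the 2809 TPM expected from the product (interaction −1.52 ± 0.09, limma adjusted p 5.04e-10), and yet 166 TPM above the sum of the separate gains. Cxcl2, a neutrophil-attracting chemokine, also rose by a smaller factor under LPS, 2.91-fold with Dex alone (to 35.9 ± 1.72 TPM) and 1.20-fold under LPS (to 2299 ± 85.3 TPM), an interaction of −1.20 ± 0.10. Slc7a11, the cystine transporter, rose 2.73-fold and 1.30-fold (−0.96 ± 0.09). Plin2, a lipid droplet coat protein, rose to 191 ± 13.2 TPM with Dex and 151 ± 5.12 with LPS from 84.0 ± 5.09 in vehicle, and was 152 ± 0.638 with both (−1.17 ± 0.08, limma adjusted p 1.84e-09).

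**Figure D3:**
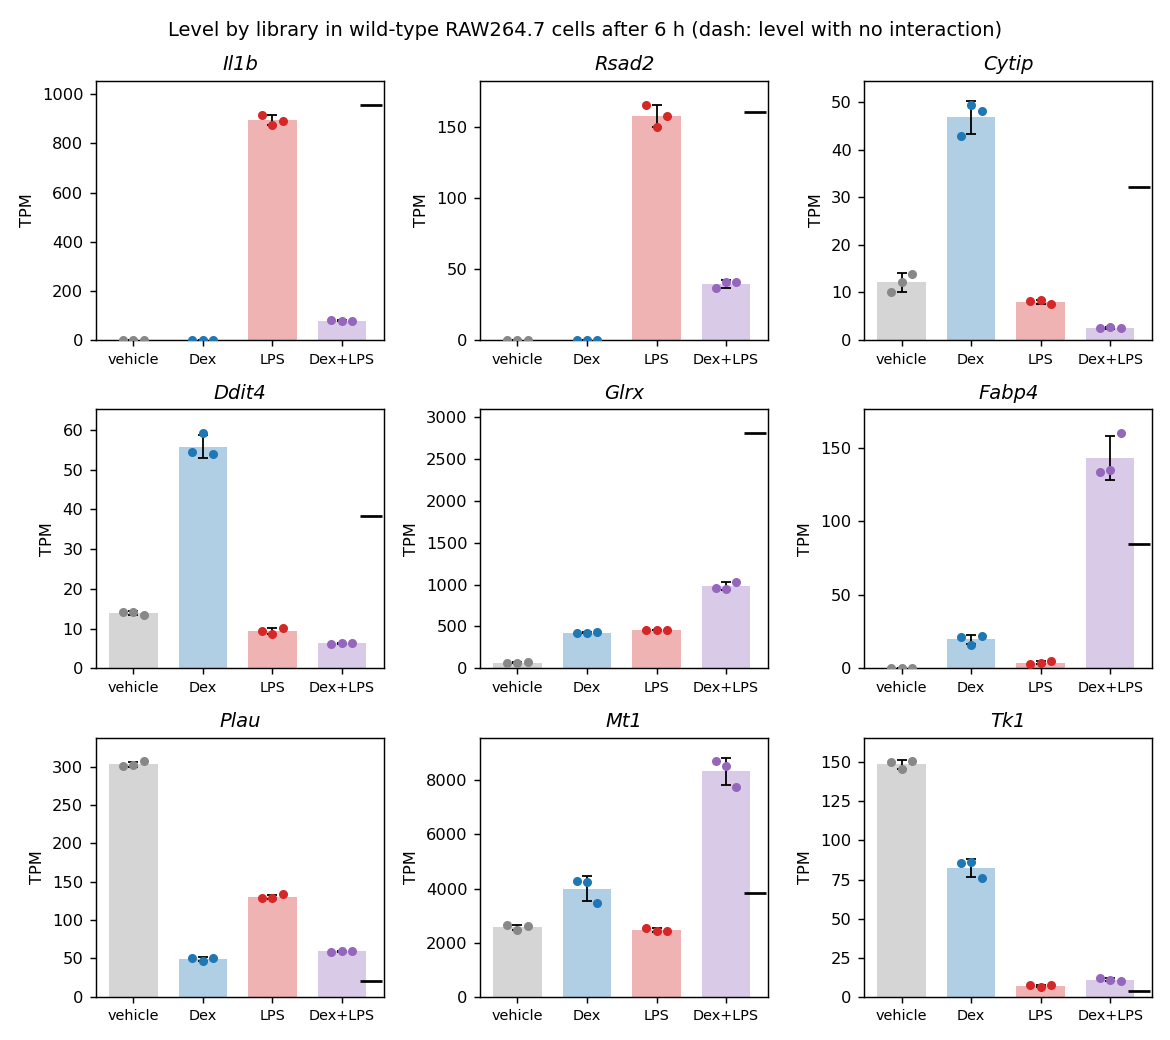
TPM (y axis, from 0) of 9 genes in each wild-type library (points), with bars at the group mean and error bars of 1 SD over 3 libraries; the dash beside Dex+LPS marks the level with no interaction. Il1b, Rsad2, Cytip, Ddit4 and Glrx lie below the dash, and Fabp4, Plau, Mt1 and Tk1 above it.

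Of 14 LPS-induced cytokine genes tested, 13 rose with LPS alone, against 19.5% of all genes. Dex under LPS lowered 11, against 10.6% of all genes. Interactions were positive in 3 and negative in 9, against 21.2% and 9.24% of all genes, with a median of −0.85. Il1b (chr2:129364570-129371139, minus strand), the pyrogenic cytokine interleukin 1 beta, was listed at 0, 0 and 0.100 TPM in vehicle libraries and 0, 0 and 0.353 with Dex, at 916, 874 and 893 with LPS and at 81.2, 77.7 and 76.1 with both. Every Dex+LPS library lay below every LPS library. As a ratio of TPM + 1, Dex+LPS cells held 0.0827 of the expected level, which was 958 TPM. The interaction was −3.60 ± 0.15 (limma adjusted p 1.75e-12), the lowest of all called genes that reach 5 TPM in some group. Il1a, its neighbour on chromosome 2, went from 209.9, 202 and 198 TPM with LPS to 24.7, 22.9 and 23.8 with both (−3.04 ± 0.10). Lif, a cytokine of the interleukin 6 family, went from 28.9, 32.9 and 29.3 to 5.73, 4.43 and 4.07 TPM (−2.50 ± 0.17), and Il6 from 52.8, 48.1 and 52.6 to 13.8, 12 and 14.1 (−1.87 ± 0.10). As these genes were at or near 0 without LPS, their interaction is the Dex effect under LPS, and no Dex effect could be seen without it.

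Other cytokines did not follow. Csf3, the granulocyte growth factor, stood at 501, 518 and 517 TPM with LPS and 553, 541 and 507 with both; the groups overlapped and the interaction of −0.28 ± 0.28 was not called (limma adjusted p 0.484). Tnf read 73.8, 68.7 and 61.0 TPM in vehicle libraries, 37.8, 29.8 and 35.0 with Dex, 872, 911 and 875 with LPS, and 696, 679 and 678 with both. Dex thus took it to 0.504 of its level without LPS and to 0.772 with LPS, a positive interaction of 0.60 ± 0.10 (limma adjusted p 0.00025), while in TPM the loss was larger under LPS. Ltb, lymphotoxin beta, which is not on that list, fell to 0.188 of vehicle with Dex and to 0.775 of LPS under LPS (1.76 ± 0.16). The other positive members were Tnfsf9, named after its values were seen (0.49 ± 0.07), and Edn1, the vasoconstrictor endothelin 1. Edn1 was listed at 0 in all vehicle libraries and at 0, 0 and 0.265 TPM with Dex, and read 7.96, 6.38 and 5.78 TPM with LPS and 25.5, 30.8 and 30.4 with both (1.85 ± 0.17, limma adjusted p 1.87e-07). With a pseudocount of 0.1 the call was lost, at 1.48 and a limma adjusted p of 0.0708. Ebi3 showed no departure: Dex took it to 0.639 of its level without LPS and 0.652 with it (limma adjusted p 0.989).

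Among 10 chemokine genes, 9 rose with LPS and 8 fell with Dex under LPS, against 19.5% and 10.6% of all genes. Interactions were positive in 2 (20%) and negative in 3 (30%), against 21.2% and 9.24% of all genes. The most abundant, Ccl3 and Ccl4, which attract monocytes and T cells, fell under LPS to 0.624 and 0.685 of their level, and Dex alone took them to 0.766 and 0.690. Their interactions of −0.30 ± 0.13 and −0.02 ± 0.13 were not called (limma adjusted p 0.091 and 0.941). Ccl3 was called negative after median-ratio scaling (−0.38, limma adjusted p 0.0389) and in 2 of 12 fits that left out 1 library. Ccl22 fell from 704 ± 3.14 TPM with LPS to 143 ± 6.17 with both (SD, n = 3; −1.69 ± 0.39, limma adjusted p 0.00272), but at 0 to 2.27 TPM in vehicle libraries its call was lost at a pseudocount of 0.1 (limma adjusted p 0.687). Cxcl14 read 139, 126 and 144 TPM in vehicle libraries, 32.5, 40.4 and 35.8 with Dex, 39.5, 47.4 and 57.2 with LPS, and 44.0, 50.6 and 36.0 with both. Either agent alone brought it to about the level the pair gave, a positive interaction of 1.75 ± 0.23 (limma adjusted p 1.18e-05).

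Interferon-stimulated genes were nearly all on the negative side. Of 58 tested, all 58 rose with LPS alone and 56 fell with Dex under LPS, against 19.5% and 10.6% of all genes. A negative interaction was called in 52, against 9.24% of all genes, and none was positive. Their median interaction was −0.86. Dex alone raised 9 of them and lowered 4, against 12% and 24.8% of all genes, with a median Dex effect of 0.01. Rsad2, coding for the antiviral enzyme viperin, was listed at 0 in every vehicle library and at 0.0566, 0 and 0 TPM with Dex; it read 166, 150.3 and 158 TPM with LPS and 36.4, 41.1 and 40.9 with both, an interaction of −2.00 ± 0.10 (limma adjusted p 8.39e-11). Ifit1, which binds viral RNA, was at most 0.325 TPM without LPS and went from 444, 443 and 424 TPM with LPS to 132, 148 and 141 with both (−1.64 ± 0.14). As Rsad2 and Ifit1 were at or near 0 without LPS, their interaction is in the main the Dex effect under LPS. A lowering by Dex could not be seen for them without LPS. Ifit3b and Ifit3, near-identical neighbours on chromosome 19 between which reads could be split either way, had interactions of −2.10 ± 0.14 and −1.80 ± 0.18. The 6 members that were not called include Tor3a and Parp9. Tor3a fell with Dex to 0.713 of its level without LPS and 0.649 with it (−0.15 ± 0.09, limma adjusted p 0.219), and Parp9 stood at −0.66 ± 0.32 (limma adjusted p 0.133). Parp9 was called without the first Dex library (−0.96, limma adjusted p 0.0142), and Tor3a at a pseudocount of 5 (limma adjusted p 0.0497). With a pseudocount of 0.1 the list had 43 negative calls, and leaving out any 1 library gave between 46 and 51.

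Promoters of this list often hold the interferon-stimulated response element, the site bound by the ISGF3 and IRF factors. In the 250 bases before the start, the element, searched as GAAA repeated after any 2 bases, was found on either strand in 22 of 47 promoters of the list (46.8%). It was in 9.41% of 627 promoters of negative calls, in 1.51% of 1456 promoters of positive calls and in 2.73% of all 6888. Called members of the list are counted again among the negative calls, so these shares overlap. The promoters of Rsad2, Ifit1 and Ifit3b are shown, from RefSeq on GRCm38.p6, because these genes also differed between genotypes below; capitals mark the element as read on the gene's strand, where it appears as its reverse complement, and stretches that overlap annotated untranslated sequence are left off. Rsad2 is at chr12:26456453-26456702 (minus strand), Ifit1 at chr19:34640744-34640870 and Ifit3b at chr19:34607707-34607956 (both plus strand).
Rsad2 promoter: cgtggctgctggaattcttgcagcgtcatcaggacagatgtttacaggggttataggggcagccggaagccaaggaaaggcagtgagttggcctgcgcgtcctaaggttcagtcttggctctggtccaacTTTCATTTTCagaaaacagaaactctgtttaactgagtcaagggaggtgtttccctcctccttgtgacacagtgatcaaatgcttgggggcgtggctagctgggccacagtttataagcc
Ifit1 promoter: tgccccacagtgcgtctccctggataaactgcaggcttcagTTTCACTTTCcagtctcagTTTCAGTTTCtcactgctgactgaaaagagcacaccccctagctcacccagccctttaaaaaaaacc
Ifit3b promoter: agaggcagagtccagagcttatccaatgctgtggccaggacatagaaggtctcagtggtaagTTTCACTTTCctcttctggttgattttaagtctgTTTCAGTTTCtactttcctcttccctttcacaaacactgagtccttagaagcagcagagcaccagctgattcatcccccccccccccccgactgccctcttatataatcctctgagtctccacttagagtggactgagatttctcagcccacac
The match begins 120 bases before the RefSeq start in Rsad2, 104 and 85 in Ifit1, and 188 and 154 in Ifit3b. No such contrast between directions was seen for the kB letters, GGG and TTCC with any 3 bases between, found in 6.06% of promoters of negative calls and 5.84% of positive ones, against 5.27% of all. The AP-1 letters TGANTCA were in 8.45% and 3.43%, against 3.85% of all. These matches are descriptions of letters, not of bound sites.

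**Figure D4:**
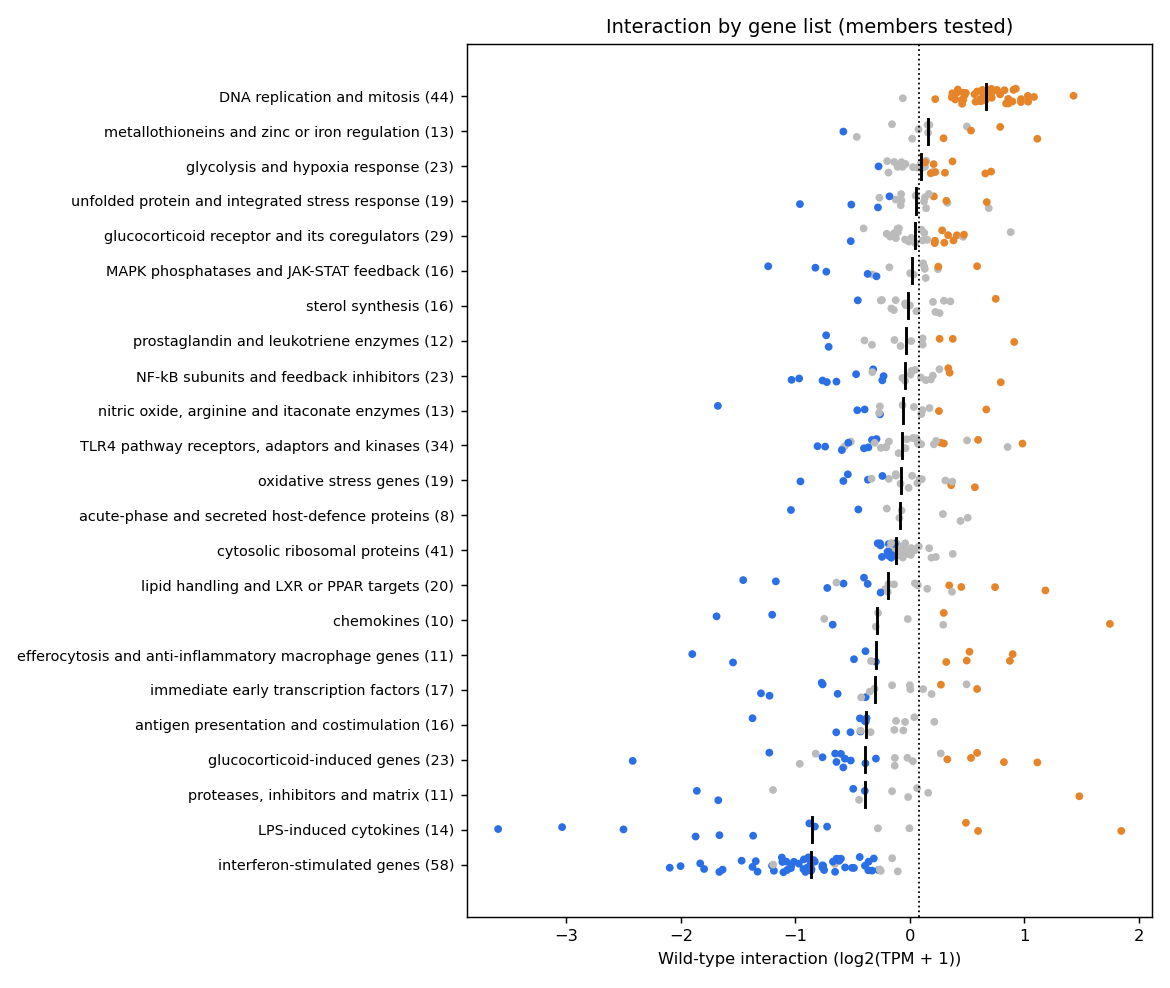
Wild-type interaction in log2(TPM + 1) (x axis) of each tested member of 23 gene lists (y axis, number tested in brackets), with orange points for positive calls, blue for negative and grey for genes not called; black ticks are list medians and the dotted line is the median of all genes, 0.08. The interferon-stimulated list lies lowest at a median of −0.86 and the DNA replication and mitosis list highest at 0.67.

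Upstream of these targets, interactions went both ways. Of 34 receptors, adaptors and kinases of the TLR4 pathway, 4 were positive (11.8%) and 8 negative (23.5%), against 21.2% and 9.24% of all genes, with a median of −0.07. After median-ratio scaling 2 were positive and 13 negative. Ikbke, a kinase that phosphorylates IRF3, was lowered by Dex alone, from 5.30 ± 0.185 to 2.70 ± 0.480 TPM, and read 89.1 ± 2.16 TPM with LPS and 103 ± 6.24 with both (SD, n = 3; 0.99 ± 0.16, limma adjusted p 0.000111). Irf5 fell to 0.501 of its level with Dex alone and 0.760 under LPS (0.60 ± 0.13). Tlr3, the receptor of double-stranded RNA, fell under LPS from 8.64 ± 0.357 to 4.48 ± 0.405 TPM and was 0.605 and 0.588 TPM without it (−0.81 ± 0.13). Tlr6 was raised by Dex alone from 3.31 ± 0.278 to 6.14 ± 0.26 TPM, and was 4.47 ± 0.0789 and 4.45 ± 0.262 TPM with LPS (−0.74 ± 0.09). Mapkapk2, the kinase below p38, showed no departure, at 0.852 and 0.868 of its level with Dex (limma adjusted p 0.774).

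Of 23 NF-kB subunits and feedback inhibitors, 3 were positive (13.0%) and 9 negative (39.1%), against 21.2% and 9.24% of all genes. Nfkbia, the inhibitor that holds NF-kB in the cytosol and a target of both NF-kB and the glucocorticoid receptor, read 75.6, 64.6 and 66.5 TPM in vehicle libraries, 143, 139 and 129 with Dex, 286, 299 and 285 with LPS, and 349, 351 and 316 with both. Dex raised it 1.99-fold without LPS and 1.17-fold with LPS, an interaction of −0.76 ± 0.09 (limma adjusted p 3.14e-06). Nfkbiz, a nuclear cofactor needed for Il6, rose with Dex alone, 1.65-fold, and fell to 0.737 under LPS (−0.97 ± 0.14); N4bp1, an RNA-degrading suppressor of cytokines, likewise rose 1.46-fold and fell to 0.691 (−1.03 ± 0.07). Relb, a subunit of the non-canonical pathway, fell to 0.426 with Dex alone and stood at 0.876 under LPS (0.80 ± 0.12). Irak3, which blocks signalling from TLRs, was raised alike in both settings, 1.97-fold and 1.89-fold, with an interaction of 0.03 ± 0.13 (95% interval −0.25 to 0.31; limma adjusted p 0.892). Tnfaip3 was not called at 0.10 ± 0.41 (limma adjusted p 0.888), with 1.23 to 4.12 TPM in libraries without LPS.

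The MAPK and JAK-STAT feedback list gave 2 positive and 5 negative calls in 16 genes, and the immediate early transcription factors 2 and 6 in 17, against 21.2% and 9.24% of all genes. After median-ratio scaling they gave 1 and 5, and 1 and 8. Dusp6, which dephosphorylates ERK, rose with Dex alone from 30.3 ± 0.359 to 41.9 ± 0.90 TPM and fell under LPS from 94.3 ± 2.03 to 72.7 ± 1.71 (SD, n = 3; −0.82 ± 0.08, limma adjusted p 2.59e-07), opposite in sign to Dusp1. Dusp5, also an ERK phosphatase, fell under LPS from 61.8 ± 3.02 to 40.5 ± 1.87 TPM (−0.73 ± 0.15). Nr4a2, an orphan nuclear receptor, read 4.67, 4.83 and 6.27 TPM in vehicle libraries, 2.51, 3.54 and 2.98 with Dex, 6.72, 7.29 and 7.72 with LPS, and 1.34, 0.985 and 1.12 with both, so the pair gave the lowest level of the 4 groups (−1.30 ± 0.16, limma adjusted p 4.87e-06). Atf3, a stress-induced repressor, fell under LPS from 28.4 ± 1.49 to 12.4 ± 2.43 TPM and was 6.88 ± 0.629 and 7.43 ± 1.98 without it (−1.23 ± 0.21).

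Of 13 nitric oxide, arginine and itaconate enzymes 2 were positive (15.4%) and 4 negative (30.8%), and of 12 prostaglandin and leukotriene enzymes 3 (25%) and 2 (16.7%), against 21.2% and 9.24% of all genes. After median-ratio scaling these counts were 1 and 6, and 2 and 4. Nos2, inducible nitric oxide synthase, was at most 0.0185 TPM without LPS; it read 37.8, 39.1 and 39.3 TPM with LPS and 10.7, 12.2 and 11.3 with both (−1.68 ± 0.08, limma adjusted p 3.44e-11). Acod1, which makes itaconate, was at 1439 ± 21.1 TPM with LPS and 1114 ± 31.4 with both (−0.39 ± 0.08), and the arginine transporter Slc7a1 was positive at 0.67 ± 0.13, lowered by Dex alone and not called under LPS. Ptgs2, the inducible cyclooxygenase, fell with Dex in both settings, to 0.397 of 15.2 ± 1.59 TPM without LPS and 0.264 of 335 ± 9.20 TPM with it (−0.71 ± 0.10, limma adjusted p 3.26e-05). Alox5, which starts leukotriene synthesis, was lowered by Dex alone, from 37.8 ± 1.54 to 26.5 ± 0.748 TPM, and raised under LPS, from 6.16 ± 0.525 to 8.56 ± 0.675 (0.91 ± 0.12).

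In antigen presentation and costimulation, 8 of 16 genes were negative and none positive, against 9.24% and 21.2% of all genes, with a median of −0.38. Cd40 fell under LPS from 161, 161 and 154 TPM to 75.1, 74.0 and 71.1, with 2.82 to 6.27 TPM without LPS (−1.37 ± 0.22, limma adjusted p 8.07e-05). Cd274, coding for PD-L1, fell from 20.1 ± 0.972 to 12 ± 0.589 TPM (−0.64 ± 0.15), and Cd80 rose with Dex alone and fell under LPS (−0.52 ± 0.08). Cd74, the invariant chain of MHC class II, was not called, at 499, 509.9, 452 and 444 TPM on average in vehicle, Dex, LPS and Dex+LPS cells (limma adjusted p 0.435). It was called negative after median-ratio scaling (−0.14, limma adjusted p 0.0346) and with the GC trend removed (−0.24, limma adjusted p 0.00626). Among 11 proteases, inhibitors and matrix genes, 1 was positive and 4 negative, against 21.2% and 9.24% of all genes. Serpinb2, a plasminogen activator inhibitor, was listed at 0 in all libraries without LPS and went from 14.7, 13.0 and 14.9 TPM with LPS to 2.57, 3.30 and 3.78 with both (−1.86 ± 0.14). Timp1, an inhibitor of metalloproteinases, fell to 0.176 of 64.1 ± 2.78 TPM (−1.67 ± 0.19). Plau, the urokinase that Serpinb2 inhibits, went the other way: it read 301, 302 and 307 TPM in vehicle libraries, 50.1, 47.0 and 50.9 with Dex, 129.5, 128 and 134 with LPS, and 59.1, 60.3 and 59.7 with both. Both agents lowered it. As a ratio of TPM + 1, the pair left it at 2.79 times the expected level, which was 20.7 TPM (1.48 ± 0.06, limma adjusted p 1.75e-12).

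Of 20 lipid-handling genes, 4 were positive (20%) and 7 negative (35%), against 21.2% and 9.24% of all genes, which are the shares to read the next lists against. After median-ratio scaling 2 were positive and 9 negative. Lpl, lipoprotein lipase, was lowered by Dex alone, from 91.1, 92.3 and 82.5 to 60.6, 54.2 and 53.0 TPM, and raised by Dex under LPS, from 109 in each library to 160.3, 154 and 159 (1.19 ± 0.08, limma adjusted p 5.21e-09). Abca1, the cholesterol exporter, was raised by LPS from 0.234 ± 0.0110 to 2.65 ± 0.230 TPM, and was 0.35 ± 0.0280 with both (−1.46 ± 0.09). In the efferocytosis and anti-inflammatory list 5 of 11 genes were positive and 5 negative. Cd300lf, a phosphatidylserine receptor, rose 2.41-fold with Dex alone and fell to 0.773 under LPS (−1.54 ± 0.11), while Tgfb1 fell to 0.432 with Dex alone and to 0.815 under LPS (0.90 ± 0.12). Of 19 oxidative stress genes 2 were positive and 5 negative, with Hmox1, heme oxygenase 1, at −0.58 ± 0.07 and Gpx1, a glutathione peroxidase, at 0.57 ± 0.11. Of 23 glycolysis and hypoxia genes 8 were positive and 1 negative, with a median of 0.10; Pfkfb3, which drives glycolytic flux, rose 1.97-fold with Dex alone and 3.10-fold under LPS (0.66 ± 0.08), but after median-ratio scaling the list had 3 positive and 5 negative calls. The metallothionein and metal list had 4 positive calls and 1 negative in 13, the unfolded protein list 3 and 4 in 19, and the acute-phase list 0 and 2 in 8. Sterol synthesis genes were mostly not called (1 positive and 1 negative of 16). After median-ratio scaling the unfolded protein list had 2 and 5 and the sterol list 1 and 4. Ribosomal protein genes, 41 of them, gave 17 small negative calls and no positive one, with a median of −0.12, and 26 negative calls after median-ratio scaling; Rpl4 rose from 1972 ± 24.6 to 2402 ± 56.0 TPM with Dex alone and was 1794 ± 1.84 and 1799.6 ± 3.63 TPM with LPS.

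Genes of DNA replication and mitosis were nearly all on the positive side. Of 44 genes, 43 had a positive interaction, against 21.2% of all genes, and none was negative; the median was 0.67. LPS lowered 42 of the 44, against 52.3% of all genes, and Dex alone lowered 39, against 24.8%. Dex under LPS raised 34 and lowered 1, against 14.7% and 10.6% of all genes. Tk1, the thymidine kinase of S phase, read 150.0, 145 and 150.5 TPM in vehicle libraries, 85.9, 86.1 and 76.1 with Dex, 7.28, 6.28 and 7.50 with LPS, and 11.8, 11 and 10.4 with both. Dex lowered it to 0.556 of vehicle and raised it 1.58-fold over LPS, an interaction of 1.43 ± 0.11 (limma adjusted p 1.11e-08). Gins2, of the replicative helicase, Ccne1, cyclin E1, and Cenpa, the centromeric histone, had interactions of 1.09 ± 0.13, 1.03 ± 0.14 and 1.03 ± 0.16, and only the mitotic gene Cenpf was not called (−0.06 ± 0.19, limma adjusted p 0.848). The count was 41 after median-ratio scaling and 42 with the GC trend removed, and between 42 and 43 without any 1 library. The E2F letters TTTCCCGC or TTTGGCGC were in 4 of 34 promoters of the list (11.8%), against 3.03% of all. In bulk RNA fewer cycling cells and less of these transcripts per cell cannot be told apart, and no cell counts were used here.

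Of 29 genes for the glucocorticoid receptor, its chaperones and coregulators, 8 were positive (27.6%) and 1 negative (3.45%), against 21.2% and 9.24% of all genes, with a median of 0.05; after median-ratio scaling 5 were positive and 3 negative. Nr3c1, the receptor, read 21.6, 27.6 and 17.0 TPM in vehicle libraries, 10.4, 20.1 and 12.1 with Dex, 21.6, 15.9 and 28.0 with LPS, and 30.8, 23.6 and 23 with both. All Dex+LPS libraries lay above all Dex libraries, a rise with LPS that was called at 0.86 (limma adjusted p 0.0187). Dex libraries overlapped vehicle and Dex+LPS libraries overlapped LPS, and the interaction of 0.88 ± 0.43 was not called (limma adjusted p 0.134). Setd1a, a histone H3 lysine 4 methyltransferase, was not called either (−0.10 ± 0.30, limma adjusted p 0.831).

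Errors were wide at both ends. Of the 15 highest interactions among called genes that reach 5 TPM, 10 had a standard error over 0.3, with a median of 0.387 against 0.120 over all genes, and of the 15 lowest, 6 had, with a median of 0.180. The median transcript GC content of the 15 highest was 53.6%, against 49.2% over all genes. H2afx, a histone variant of DNA damage signalling, read 41.6, 49.0 and 17.4 TPM in the 3 Dex+LPS libraries, and Scand1 60.6, 60.7 and 20.1, so that in each the third library lay far below the other two. Their interactions were 2.96 ± 0.68 and 2.90 ± 0.66, both called. In Setd1aDel/+ cells only 7 of these 15 genes had the same sign, and 4 were called with it, whereas 13 of the 15 lowest genes kept their sign and 11 were called. At the negative end Ddx41 also had 1 library apart, at 1.26, 14.2 and 14.7 TPM in Dex+LPS libraries (−3.07 ± 0.68). Removing the GC trend of single libraries ended the call of none of H2afx, Scand1 and Ddx41.

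In Setd1aDel/+ cells Setd1a itself was lower on average than in the wild type in every treatment, at 17.1, 15.2, 12.1 and 11.8 TPM in vehicle, Dex, LPS and Dex+LPS cells against 24.2, 24.1, 17.8 and 15.6. Single libraries ranged from 9.60 to 22.3 TPM in Setd1aDel/+ cells and from 12 to 29.7 in the wild type, so the genotypes overlapped. The labels do not say whether these cells are a single clone. Their interaction shares no library with that in the wild type, but both come from 1 fit with a common spread per gene. Calls in the 2 genotypes are therefore not independent. The Setd1aDel/+ interaction was positive in 1849 genes (20.6%) and negative in 855 (9.52%). Fitted alone, the Setd1aDel/+ libraries gave 1570 positive and 710 negative calls. Of the 1903 positive wild-type calls, 1750 had the same sign in Setd1aDel/+ cells (92.0%, against 61.0% positive among all genes) and 1186 were called, which is 62.3% of the wild-type list and 64.1% of the other; 11 were called with the opposite sign. Of the 830 negative calls, 782 kept their sign (94.2%, against 38.9% of all genes), 536 were called and 4 were called the other way. Across genes the 2 interactions correlated at r = 0.62; genes are not independent replicates, and the groups share scaling by TPM. The list counts were close, with 54 negative calls among the 58 interferon-stimulated genes and 41 positive ones among the 44 replication and mitosis genes. Cytip (−2.83), Ddit4 (−2.47), Il1a (−2.75) and Plau (1.39) were called in the same direction.

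**Figure D5:**
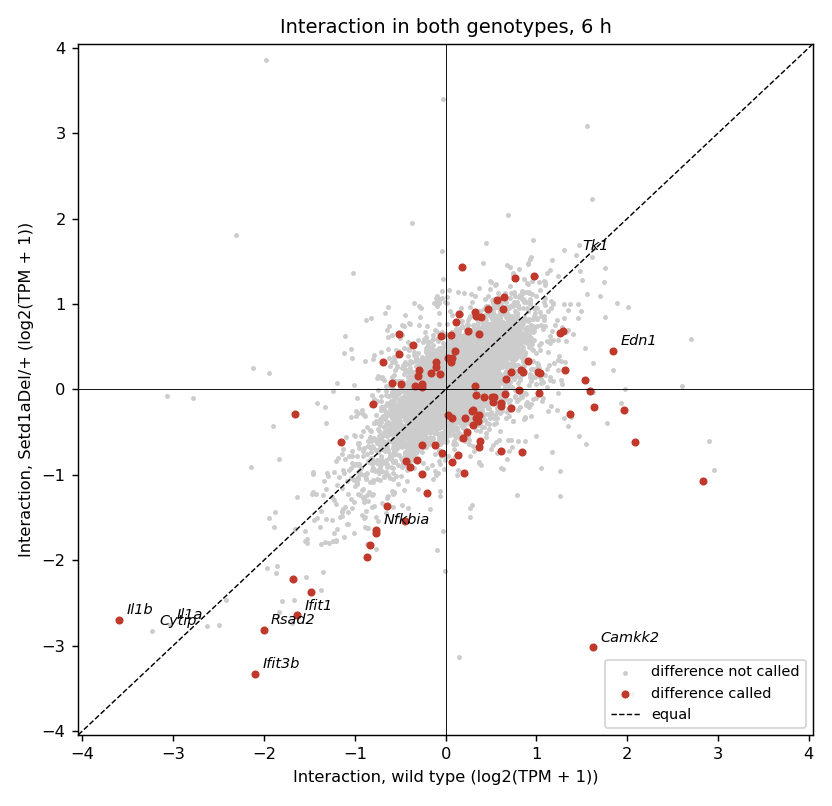
Each point is 1 of 8981 genes, with the interaction in wild-type cells on the x axis and in Setd1aDel/+ cells on the y axis, both in log2(TPM + 1); red points are the 107 genes whose interaction differed between genotypes and the dashed line marks equal values. Ifit1, Ifit3b, Rsad2 and Nfkbia lie below the line and Il1b above it.

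The interaction itself differed between genotypes in 107 genes (1.19%), 39 of them higher in Setd1aDel/+ cells (0.434%) and 68 lower (0.757%). For Il1b it was less negative, by 0.90 ± 0.21 (limma adjusted p 0.0384): in the mutant cells LPS libraries read 712, 749 and 750.3 TPM and Dex+LPS libraries 97.5, 100.2 and 107. Of the 58 interferon-stimulated genes, 6 were more negative and none less. Among these, Ifit3b differed by −1.23 ± 0.20, Ifit1 by −1.01 ± 0.20 and Rsad2 by −0.81 ± 0.15 (limma adjusted p 0.00728, 0.0195 and 0.0111); Rsad2 read 89.0, 99.6 and 94.8 TPM with LPS and 11, 11.8 and 11.4 with both in Setd1aDel/+ cells. For Nfkbia the difference was −0.88 ± 0.13 (limma adjusted p 0.0033): in Setd1aDel/+ cells Dex raised it without LPS, from 60.7, 58.7 and 65.6 to 138, 157 and 155 TPM, and under LPS it went from 359, 343 and 331 to 263, 269.9 and 263. Edn1 lost most of its interaction (−1.40 ± 0.24, limma adjusted p 0.0106), reading 19.6, 18.0 and 20.2 TPM with LPS and 36.9, 43.1 and 38.6 with both. The counts of differing genes were small and moved with single libraries, from 35 to 110 for the lower genes when 1 library was left out.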

How the data were processed

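RNA-seq libraries (TruSeq Stranded mRNA, per the labels) were quantified by the authors, and the deposited table gives TPM per gene and library. The submitters' processing notes name Salmon 0.10.2, DESeq2, R 3.6.0 and the GRCm38.p6 build, with no role given for each, and DESeq2 was not run here. TPM keeps no read depth, so no counting interval can be given. Of 8983 genes, 8981 were tested, those reaching 1 TPM in 3 or more libraries; 23 symbols were restored from gene identifiers. log2(TPM + 1) values of the 24 libraries (8 groups of 3) were fitted with limma 3.58.1 (trended empirical Bayes, R 4.3.3), and each contrast was adjusted by Benjamini-Hochberg at 0.05. In simulated data of 8981 genes, 100 were changed by 0.5 and 100 by 1 on the log2 scale, and 61% and 88% were recovered for the wild-type interaction. Of all calls 3.25% were false. The changed genes all had a mean of at least 5 TPM, and the noise was normal with 1 spread per gene. Recovery of genes of low level or with outlying libraries was therefore not measured. Genes named singly were the 15 highest and 15 lowest calls reaching 5 TPM, for each list the 4 largest calls and 2 most abundant genes not called, 4 per expression pattern, the 8 largest genotype differences, and set anchors. The comparison, lists and markers were chosen with earlier results of these data known. Promoters are RefSeq (GRCm38.p6), matched to 6888 of the tested genes. Alternatives covered pseudocount, filter, scaling, GC trend, replicate block, libraries fitted and single libraries; the GC correction and list counts under alternatives were added after seeing the data. A gene that this rule also names is not reported here.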

Additional observations from a re-analysis of the deposited data

Results flagged for a closer look

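Results are given here where the interaction itself differed between Setd1aDel/+ and wild-type cells by limma's test of the difference (adjusted p under 0.05); the groups of 3 libraries are too small for a test of single outlying libraries. In all, 39 genes had a higher interaction in Setd1aDel/+ cells and 68 a lower one. Among genes named in the report, the difference was 0.90 for Il1b, −1.23 for Ifit3b, −1.01 for Ifit1, −0.81 for Rsad2, −0.88 for Nfkbia and −1.40 for Edn1. For Nos2 it was −0.54, with interactions of −1.68 in the wild type and −2.22 in Setd1aDel/+ cells. For Pfkfb3 it was −0.54, as a wild-type value of 0.66 stood against 0.12.

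Of the 8 differences named by size, 1 belongs to a gene with no symbol in the files and is not given here; the other 7 were −4.64 for Camkk2, −2.71 for Mrfap1, −2.21 for Ndufaf8, −1.83 for Cct4, −1.66 for Chd4, −1.60 for Mfsd10 and −1.57 for Tymp. The wild-type interaction of Tymp lost its call with the GC trend removed (limma adjusted p 0.0939). Libraries of these genes scattered widely. In Setd1aDel/+ cells Camkk2 read 0.019, 0 and 1.30 TPM with Dex+LPS and 1.78, 0.0631 and 0.45 with vehicle. In wild-type Dex+LPS cells Mrfap1 read 444, 449.9 and 204 TPM. Deviations of the Setd1aDel/+ Dex+LPS libraries followed transcript GC content at Spearman correlations from −0.30 to 0.45 across genes; the part of this in these differences was not tested.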

How the results depend on the processing

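The wild-type count of 1903 positive and 830 negative interactions became 1307 and 1289 with median-ratio scaling and 1303 and 1293 with the GC trend removed, so negative calls rose by over 1.5 times; 78.2% and 76.1% of the 2733 wild-type calls were shared. LPS alone changed from 1751 higher and 4700 lower to 3072 and 3039 with that scaling. At a pseudocount of 0.1 the interaction counts were 1887 and 780, and at 5 they were 1930 and 894. Leaving out 1 library gave 1661 to 1802 positive and 720 to 798 negative calls in the wild type, and 1634 to 1919 and 754 to 874 in Setd1aDel/+ cells. For the genotype difference it gave 18 to 58 positive and 35 to 110 negative calls, against 39 and 68: the 18 came without the second wild-type Dex+LPS library, the 35 without the first Setd1aDel/+ LPS library and the 110 without the third wild-type Dex+LPS library. With the replicate block the counts were 1866 and 812, 1828 and 837, and 33 and 64; libraries of the same number deviated together at correlations of only −0.05 to 0.12 in the wild type, so the numbers were not taken as pairs. Of 126 genes examined singly, 105 kept their call in every alternative. Fabp4 turned to −1.23 at a pseudocount of 0.1, and Klf9 to −0.0139 and Cxcl10 to −0.79 at a pseudocount of 5; the cause was not tested.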
